A study of Mus musculus with 14 samples.

Results

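The comparison set RNA from sorted round spermatids of mice labelled hetMIWI, read here as heterozygous for the Piwi-family gene MIWI (Piwil1), against whole lysate of dissociated testis cells, with 1 sequencing library on each side. Its members are the 5783 genes that at least 1 of these tables lists, of 21962 genes with a symbol in the series. Of these, 2659 genes were listed in both tables, 528 only for the hetMIWI cells and 2596 only for lysate. The series holds 14 libraries in 9 groups, made along the purification of the chromatoid body. Both libraries came from C57BL/6 mice at least 6 weeks old and were made from total RNA with the same priming method, and neither was selected for RNA above 500 bp. The lysate came from collagenase-dissociated tubule cells that were fixed with formaldehyde and sonicated. The labels attach the same protocol text to the sorted cells and do not say whether they were fixed. The labels give neither the MIWI allele, the sorting method nor the number of animals, so cell content, genotype and preparation cannot be told apart. A second round spermatid table is shown beside the values for orientation, with 1 value per gene for 2 libraries of unstated genotype, of which 1 was selected above 500 bp. With 1 library per group there was no replicate check, no error and no test for any difference.

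Round spermatids are haploid germ cells that build the acrosome and flagellum and later replace their histones with transition proteins and then protamines. Many of their mRNAs are made early, bound by storage proteins and translated days later, and the perinuclear chromatoid body collects RNA, the helicase MVH (Ddx4) and MIWI. MIWI binds the piRNAs of pachytene spermatocytes and round spermatids, and mice without it arrest at the round spermatid stage. A testis lysate holds, besides round spermatids, spermatocytes, elongating spermatids, spermatogonia and somatic cells such as Sertoli and Leydig cells. In bulk RNA, fewer cells of a type and less RNA per cell cannot be told apart.

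Before any level was compared, the tables were checked for completeness. All 3 gene tables start at 5.00 FPKM (fragments scaled to transcript length and to library size), and the hetMIWI table lists 3187 genes, against 5255 for lysate and 4956 for the other round spermatids. Of the 4105 genes listed for both lysate and the other round spermatids, 2312 (56.3%) were listed for hetMIWI cells. That share was nearly level: 52.1% of genes at 5 to 7 FPKM, 57.8% at 20 to 30 FPKM, 57.3% at 100 to 200 FPKM and 53.7% at 200 to 500 FPKM. At 500 FPKM or more, 12 of 17 such genes were listed. Genes without a hetMIWI value include Odf1 (outer dense fibre protein; 1079 FPKM in lysate and 532 in the other round spermatids), Pabpc1 (a poly(A)-binding protein; 248 and 1091 FPKM) and Ddx4 (121 and 119 FPKM). The lysate table behaved otherwise, since it lists 41.7% of hetMIWI genes at 5 to 7 FPKM, 85.8% at 10 to 15 FPKM and all of them at 200 to 500 FPKM (103 genes) and at 500 FPKM or more (39 genes). Of 1400 genes at 30 FPKM or more in both the joint-table lysate and the other round spermatids, 814 (58.1%) were in the hetMIWI table. The lysate table lists 1394 of them (99.6%). The joint table quantifies the same lysate library again, so that lysate share was largely fixed in advance. A gene missing from the hetMIWI table was therefore not read as low, and directions below rest on genes listed in both tables. Of all 2596 genes listed for lysate only, 1793 were listed for the other round spermatids. That share is the background for such counts of list members below.

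**Figure D1:**
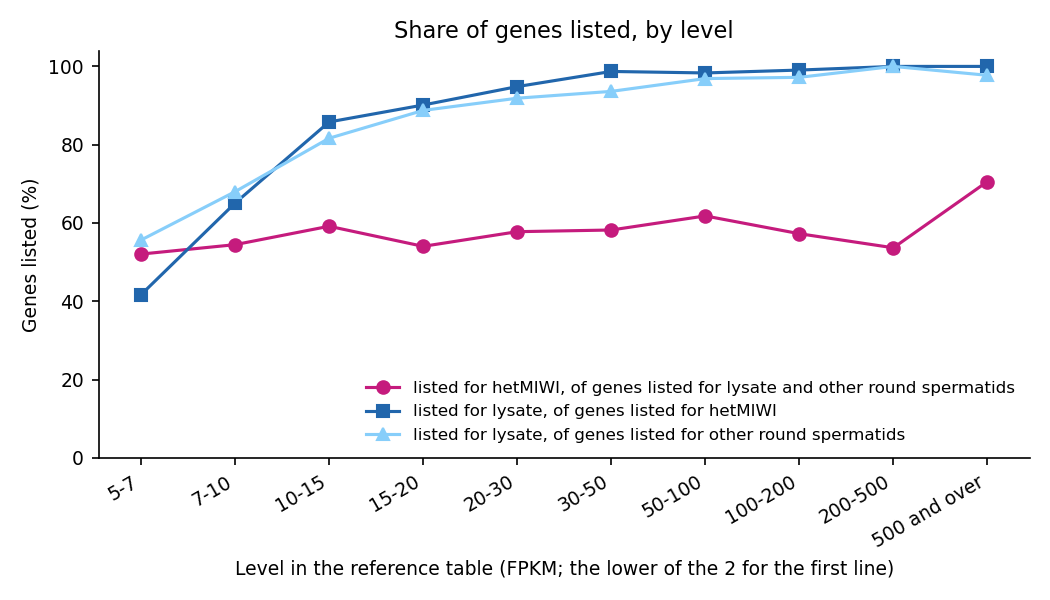
Share of genes listed (%) against their level in the reference table (FPKM), for the hetMIWI table among genes listed for lysate and other round spermatids (circles) and for the lysate table among genes of either round spermatid table (squares and triangles). The lysate shares climb from 41.7% and 55.6% at 5 to 7 FPKM to near 100%, while the hetMIWI share runs from 52.1% to 70.6% with no such climb.

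Of 16 round spermatid markers, 12 were listed for hetMIWI cells, and lysate and the other round spermatids list all 16. Levels in hetMIWI cells ran from 51.6 FPKM for Catsper3 (a sperm calcium channel subunit) to 3290 FPKM for Tnp1, with Acrv1 (an acrosomal matrix protein) at 145 FPKM and Spaca1 (an acrosomal membrane protein) at 277 FPKM. Against lysate, by the centred 2-fold rule described below, Spam1 stood higher and Tnp1, Tnp2, Prm1, Prm2 and Gapdhs stood lower. The other markers with a hetMIWI value lay within 2-fold, so the panel as a whole did not stand higher than in lysate. Tssk1, Tssk2, Akap4 and Odf1 had no hetMIWI value, as did many genes at their level. Markers of the other testis cells were few: no Sertoli, peritubular, vascular, macrophage or blood marker was listed for hetMIWI cells. Their summed lysate level was 112 FPKM over 9 Sertoli markers, 36.8 FPKM over 2 peritubular and vascular markers and 25.9 FPKM over 3 macrophage and blood markers. The highest of these in lysate were Cst12 at 28.4 FPKM and Sparc at 24.3 FPKM, and the other round spermatid table lists 1 Sertoli marker at 6.87 FPKM. Of 14 Leydig markers in lysate (summed 337 FPKM), the hetMIWI table lists Insl6, also known from male germ cells, at 101 FPKM and Scarb1, a lipoprotein receptor, at 5.14 FPKM. Cyp17a1 and Insl3, which define Leydig cells, stood at 54.1 and 31.5 FPKM in lysate and were listed in neither round spermatid table. As a yardstick for these absences, the hetMIWI table lists 30.2% of the 1150 lysate genes that the other round spermatid table lacks.

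The tables were scaled apart, and shared genes had a median log2 ratio of 0.70 (1.62-fold) toward hetMIWI cells, which became -0.55 when lysate was read from the joint table. Ratios were therefore centred on this median, and a gene was called at a centred log2 ratio of 1 or more in either direction. By this rule 213 genes (8.01%) stood higher and 293 (11.0%) lower in hetMIWI cells, and 2153 lay within 2-fold. These percentages are the background against which each gene group is read. Higher genes made up 42.1% of calls after centring, 92.0% without centring and 98.2% when the sums of FPKM were set equal. Small nucleolar RNAs take all 10 of the highest lysate values, and those 10 genes hold 67.2% of the listed lysate FPKM. With small RNA genes left out of the sums, 256 genes stood higher and 268 lower (48.9% higher). With both lysate values, 170 of the higher and 242 of the lower genes kept their call.

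**Figure D2:**
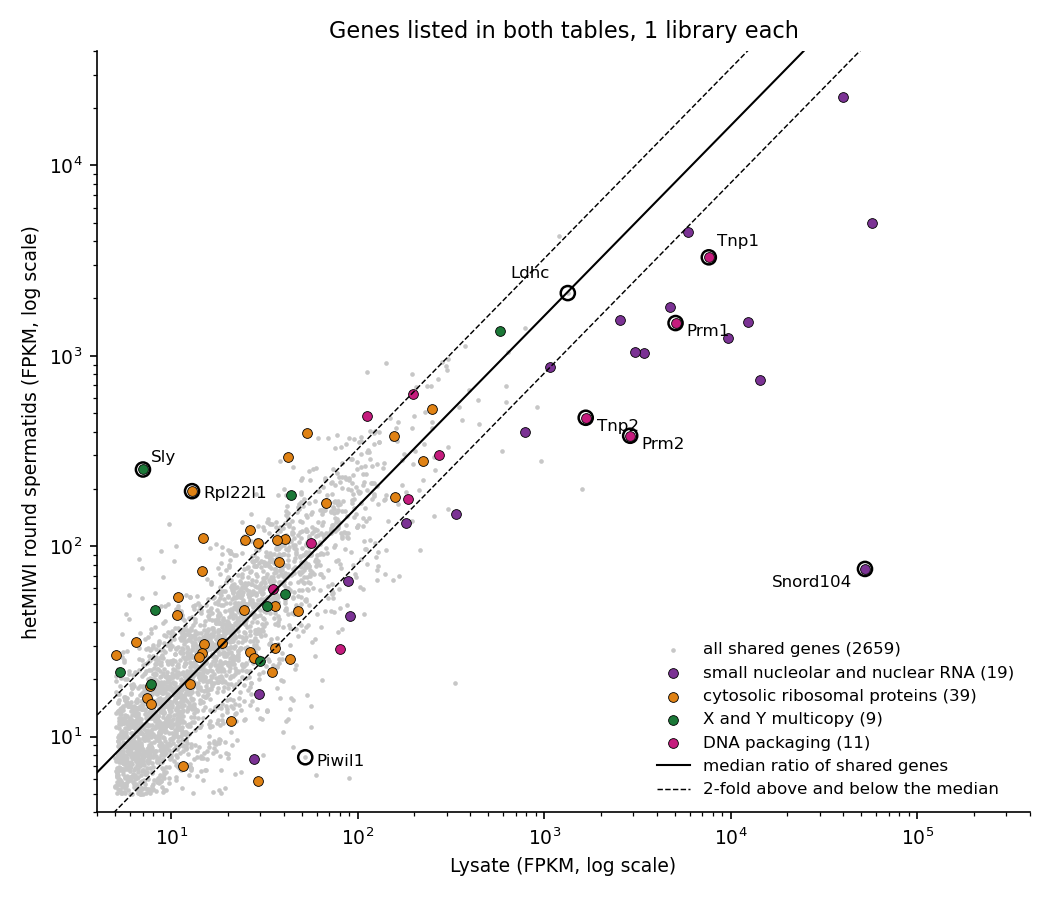
FPKM in lysate (x axis) and in hetMIWI round spermatids (y axis) of the 2659 genes listed in both tables, on log axes, with the median ratio (solid) and 2-fold limits (dashed). Transition protein and protamine genes lie under the band at the top of the protein-coding range, small nucleolar RNAs lie under or near its lower edge, and Sly lies farthest above it at 253 FPKM.

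Piwil1, the gene of the genotype, was listed at 7.79 FPKM in hetMIWI cells and 52.2 FPKM in lysate (106 FPKM in the joint table) at chr5:129242121-129261349 (mm9). Its centred log2 ratio of -3.44, or 10.9-fold lower, placed it among the 10 largest decreases. In the other round spermatids it was listed at 5.01 FPKM, so both round spermatid values were low and the lysate values high. No wild-type library of the same sort is labelled, so for Piwil1 genotype and cell type cannot be told apart. Of 17 shared chromatoid body genes, Piwil1 included, 0 stood higher and 3 lower, with a median centred log2 ratio of -0.06. These counts depend on the centring: they were 3 and 1 without it, and 10 and 1 with equal sums of FPKM. Besides Piwil1, the lower members after centring were Tdrkh (a Tudor protein of piRNA trimming; 8.41 against 11.5 FPKM) and Tdrd9 (a piRNA pathway helicase; 15.8 against 20.7 FPKM). Tdrd9 lost its call with the joint-table lysate, at -0.95, and Adad1, a testis RNA-binding protein, gained a higher one, from 0.91 to 1.07. Gtsf1, a piRNA pathway zinc finger protein, was at 158 FPKM in hetMIWI cells and 110 in lysate, and Hspa2, a germ cell chaperone, at 481 and 200 FPKM. Ddx25, a spermatid RNA helicase, was at 152 and 71.7 FPKM. After centring these 3 lay within 2-fold. A further 17 members were listed for lysate only, and 10 of them were listed for the other round spermatids, beside 1793 of all 2596 lysate-only genes.

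Genes for sperm DNA packaging had the lowest median of the protein-coding lists after centring. Of 23 members in the files, 11 were shared, 5 of them lower and 1 higher, with a median of -0.78, which was -0.08 without centring and turned to 0.56 with equal sums of FPKM. Prm2, a protamine of the mature sperm nucleus, was at 380 FPKM in hetMIWI cells, 1077 in the other round spermatids and 2882 in lysate (12.3-fold lower after centring). Prm1, the other main protamine, was at 1486, 1614 and 5046 FPKM in the same order, a centred log2 ratio of -2.46. Tnp2, a transition protein, was at 473, 989 and 1665 FPKM, with a centred log2 ratio of -2.52. Tnp1, the more abundant transition protein, was at 3290, 3459 and 7609 FPKM, a ratio of -1.91. H2afb1, a testis H2A variant, was at 28.9, 36.4 and 79.7 FPKM, a ratio of -2.17. For all 5 genes both round spermatid values lay below the lysate value, and the calls held with the joint-table lysate. They stayed lower without centring, and with equal sums of FPKM 3 of them kept the 2-fold call.

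Prm3 departed from its neighbours. The files place Tnp2 (chr16:10788028-10788748), Prm3 (chr16:10790601-10791007), Prm2 (chr16:10791474-10792190) and Prm1 (chr16:10796425-10796916, all mm9) next to each other. Prm3, a short acidic protein encoded within this cluster, was at 634 FPKM in hetMIWI cells, 320 in the other round spermatids and 197 in lysate. Its centred log2 ratio of 0.99 fell just short of a higher call, against -2.52, -3.62 and -2.46 for Tnp2, Prm2 and Prm1. Its longest annotated transcript is 410 nt and that of Prm1 is 469 nt, and the part of length in this contrast was not tested. H3f3a, which encodes the replacement histone H3.3, was the higher member at 483 FPKM against 111 in lysate, but its joint-table lysate value was 6.74 FPKM. Hils1 and Hmgb4, a linker histone-like protein and a spermatid HMG box protein, were within 2-fold at -0.78 and -0.55. Hist1h2ba, a testis H2B, had no hetMIWI value at 324 FPKM in lysate and 12.6 in the other round spermatids. Of the 8 members in lysate only, 6 were listed for the other round spermatids, beside 1793 of all 2596 lysate-only genes.

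**Figure D3:**
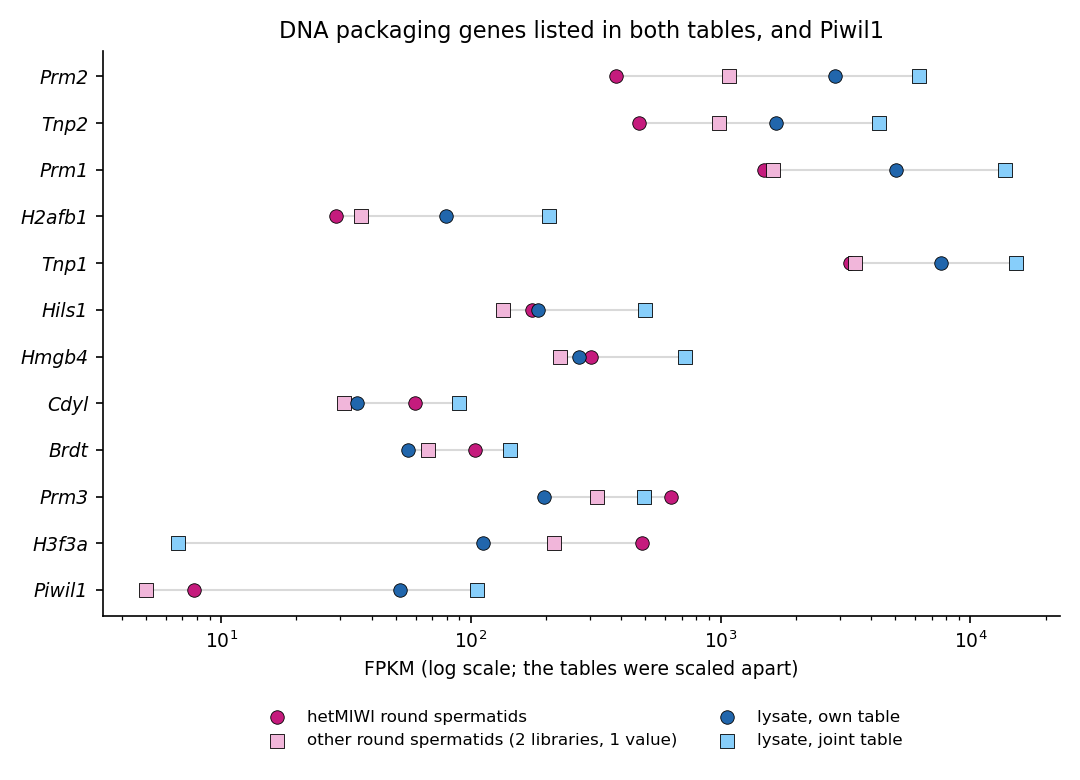
FPKM (log axis) of the 11 shared DNA packaging genes and Piwil1 in hetMIWI round spermatids, the other round spermatids (1 value for 2 libraries) and lysate by its own and by the joint table. The hetMIWI points of Prm2, Tnp2, Prm1, H2afb1, Tnp1 and Piwil1 lie left of both lysate points, and that of Prm3, at 634 FPKM, lies right of them.

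Because the protamine and transition protein genes moved together, their promoters are shown, 250 bases before to 50 bases after the transcription start (RefSeq, GRCm38.p6). Capitals mark the letters TGACGTCA, the cAMP response element bound by the spermatid activator CREM, its core TGACG and the letters TATAA, each on either strand. Kif17 is shown as a shared gene of the CREM pathway whose window holds the full element. The windows are chr1:73015850-73016149 for Tnp1, chr16:10788606-10788905 for Tnp2, chr16:10796774-10797073 for Prm1, chr16:10792056-10792355 for Prm2 (all on the minus strand) and chr4:138262001-138262300 for Kif17 (plus strand).
Tnp1: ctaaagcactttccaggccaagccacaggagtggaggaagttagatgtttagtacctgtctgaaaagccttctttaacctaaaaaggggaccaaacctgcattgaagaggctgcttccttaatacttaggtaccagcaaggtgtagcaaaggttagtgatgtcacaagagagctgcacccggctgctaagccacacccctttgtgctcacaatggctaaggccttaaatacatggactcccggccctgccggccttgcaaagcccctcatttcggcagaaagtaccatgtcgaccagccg
Tnp2: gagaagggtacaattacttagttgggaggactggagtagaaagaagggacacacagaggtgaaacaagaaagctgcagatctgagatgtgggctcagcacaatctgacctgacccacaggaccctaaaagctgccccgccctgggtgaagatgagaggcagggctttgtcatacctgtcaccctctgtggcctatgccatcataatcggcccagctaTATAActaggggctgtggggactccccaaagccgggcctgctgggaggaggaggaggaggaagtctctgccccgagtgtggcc
Prm1: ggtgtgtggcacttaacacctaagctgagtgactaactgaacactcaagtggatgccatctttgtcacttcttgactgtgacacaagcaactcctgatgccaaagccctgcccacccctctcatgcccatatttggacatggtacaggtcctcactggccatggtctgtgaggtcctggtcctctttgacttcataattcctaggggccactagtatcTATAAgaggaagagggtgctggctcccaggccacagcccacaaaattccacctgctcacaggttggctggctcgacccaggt
Prm2: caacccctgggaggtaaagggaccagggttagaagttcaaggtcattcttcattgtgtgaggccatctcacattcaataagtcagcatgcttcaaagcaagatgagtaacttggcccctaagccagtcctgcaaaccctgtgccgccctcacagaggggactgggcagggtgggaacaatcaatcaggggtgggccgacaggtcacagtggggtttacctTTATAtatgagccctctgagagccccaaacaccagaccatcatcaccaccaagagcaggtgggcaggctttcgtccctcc
Kif17: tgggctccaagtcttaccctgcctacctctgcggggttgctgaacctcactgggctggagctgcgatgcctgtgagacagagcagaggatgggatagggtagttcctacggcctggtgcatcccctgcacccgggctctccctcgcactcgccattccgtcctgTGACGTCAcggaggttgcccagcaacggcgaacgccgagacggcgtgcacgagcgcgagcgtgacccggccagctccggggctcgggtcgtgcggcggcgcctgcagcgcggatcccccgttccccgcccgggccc
In Tnp2, Prm1 and Prm2 the TATAA match begins 33, 32 and 30 bases before the start, and Tnp1 holds none of the 3 motifs. Neither TGACGTCA nor TGACG occurs in the windows of the 4 packaging genes, while Kif17 has the full element starting 86 bases before its start. Only exact letters were searched. Close variants, such as TGATGTCA in the Tnp1 window and TGACTTCA in the Prm1 window, were not counted, and binding of CREM was not tested. Promoters were matched for 2132 of 2659 shared genes (80.2%). TGACGTCA occurred in 3.64% of 165 higher, 3.20% of 219 lower and 3.61% of all shared promoters, against 1.88% of all 27025 promoters. The TGACG core, which every full element contains, occurred in 37.0% of higher, 32.4% of lower and 33.8% of all shared promoters, against 21.0% of all promoters. TATAA occurred in 18.2%, 14.2% and 13.4% of the same groups, against 25.5% of all promoters. The shares of higher and lower genes thus lay close to that of shared genes for the element and its core.

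Transcription regulators of spermatids were mostly within 2-fold. Of 8 shared members 1 stood higher: Tbpl1, the TBP-like factor needed for spermiogenesis, at 79.7 FPKM in hetMIWI cells and 20.5 in lysate (1.26). Crem was at 82.0 and 31.6 FPKM (0.67, within 2-fold) and at 254 FPKM in the other round spermatids. Kif17, a motor that carries a CREM coactivator, was at 81.6 and 51.3 FPKM (-0.03). Spz1, a testis bHLH factor, was listed for lysate at 299 FPKM and for the other round spermatids at 257 FPKM only. Genes of mRNA storage and poly(A) control had 13 shared members, 1 higher and 0 lower. Ybx2 (MSY2), the main mRNA-masking protein of male germ cells, was at 665 FPKM against 396 in lysate (0.05). Csda, a second Y-box protein, was at 926 against 283 FPKM (1.01), which became 0.92 with the joint-table lysate. Pabpc2, a testis poly(A)-binding protein, was at 228 against 89.9 FPKM (0.65).

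Acrosome and egg-binding genes were centred on the median of all shared genes: 27 shared members, 2 higher, 3 lower, median 0.01. Acr, the acrosomal protease, was at 194 FPKM in hetMIWI cells, 111 in the other round spermatids and 62.1 in lysate, a centred log2 ratio of 0.94. Actl7b, an actin-like protein of the spermatid head, was called higher (351 against 101 FPKM, 1.09), as was Spam1, a sperm hyaluronidase (54.1 against 12.6 FPKM, 1.40). Both calls were lost with the joint-table lysate, at 0.98 and 0.84. The lower members were Adam18 (a sperm surface metalloprotease-like protein; 18.0 against 37.0 FPKM), Pcsk4 (a sperm proprotein convertase; 5.69 against 9.72 FPKM) and Actrt1 (an actin-related protein; 6.79 against 9.03 FPKM). Crisp2, a cysteine-rich acrosomal and tail protein, was within 2-fold at 575 against 621 FPKM (-0.81). Without centring 7 shared members of this list stood higher and 1 lower, against 17 and 0 with equal sums of FPKM. Adam3, a sperm surface protein of egg binding, was 1 of 21 members in lysate only, and all 21 were listed for the other round spermatids.

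The flagellum list split by gene. Of 48 shared members, 6 stood higher and 7 lower, beside background shares of 8.01% and 11.0%, with a median of 0.13. The higher genes included Rsph3a (radial spoke; 372 against 68.7 FPKM, 1.74), Dnaic2 (dynein intermediate chain; 48.7 against 9.23 FPKM, 1.70) and Rsph9 (radial spoke; 189 against 49.5 FPKM, 1.23). Tekt3 (a tektin of flagellar microtubules), Ccdc113 and Ccdc42 were also higher, at 1.03, 1.30 and 1.30. Smcp, a protein of the sperm mitochondrial capsule, was lower at 541 against 909 FPKM (-1.45). Oaz3, a haploid-specific antizyme, was lower at 317 against 593 FPKM (-1.61), as was Spem1, needed to shed cytoplasm, at 37.0 against 81.8 FPKM (-1.85). Spata18, Catsperg1 (a CatSper channel subunit), Dnahc7b and Dnahc1 (dynein heavy chains) were lower at -1.66, -1.65, -1.55 and -1.23. With the joint-table lysate, 5 of the 6 higher and 7 of the 7 lower calls held. Without centring 21 members passed 2-fold upward and 1 downward, so the lower calls depend on the centring. Tcte3 and Meig1, a dynein light chain and a spermatid manchette factor, were the highest members at 1120 and 1051 FPKM, against 374 and 640 FPKM in lysate. Both lay within 2-fold, at 0.88 and 0.01. All but 1 of the 27 members in lysate only were listed for the other round spermatids, among them Odf1.

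Sperm isozymes of glycolysis and energy supply had 19 shared members, 0 higher and 2 lower. Gapdhs, the sperm glyceraldehyde-3-phosphate dehydrogenase, was at 156 FPKM in hetMIWI cells, 176 in the other round spermatids and 303 in lysate (-1.66). Gpi1, the glycolytic phosphoglucose isomerase, was at 19.7 FPKM against 39.6 in lysate (-1.71). Ldhc, the germ cell lactate dehydrogenase, was near the median at 2135 against 1335 FPKM (-0.02). Gk2, a testis glycerol kinase, and Vdac2, a mitochondrial outer membrane channel, were within 2-fold at 0.80 and 0.85. Both lower calls held with the joint-table lysate. The counts depend on the centring, with 5 higher and 1 lower without it, and 11 and 0 with equal sums of FPKM.

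Of 17 shared kinases and phosphatases of spermatids, 3 stood higher and 3 lower after centring, against 5 and 2 without centring and 12 and 0 with equal sums of FPKM. Tssk4, a testis-specific serine kinase, was higher at 128 against 29.0 FPKM (1.44), whereas its relative Tssk3 was lower at 26.6 against 58.9 FPKM (-1.85). Ppp3cc, the testis calcineurin catalytic subunit, and Prkar1a, a regulatory subunit of protein kinase A, were higher at 1.26 and 1.06. Pim1 and Csnk1g2, a serine kinase and a casein kinase, were lower at -2.01 and -1.13. All 6 kept their call with the joint-table lysate. Ip6k1, an inositol hexakisphosphate kinase, was at 22.1 FPKM in hetMIWI cells and 16.6 in lysate, against 1508 FPKM in the other round spermatids. Of 28 shared ubiquitin and vesicle genes, 1 stood higher (Arih2, a RING ligase; 90.3 against 21.8 FPKM, 1.35) and 0 lower.

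**Figure D4:**
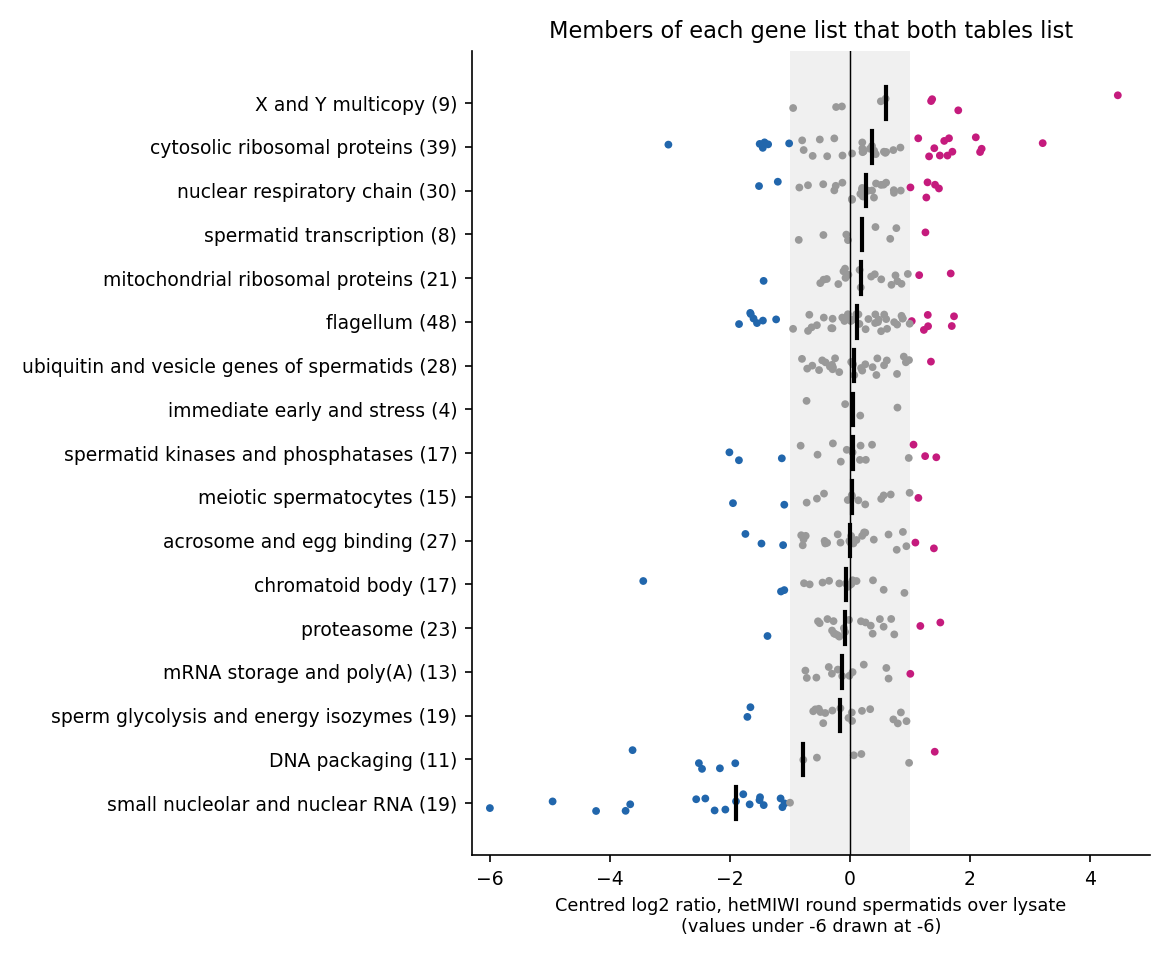
Centred log2 ratio of hetMIWI round spermatids over lysate for the shared members of 17 gene lists (number in brackets), each point 1 gene, coloured where it lies outside the 2-fold band (grey area; 1 value under -6 drawn at -6), with the list median as a black bar. Medians run from -1.90 for small nucleolar and nuclear RNA and -0.78 for DNA packaging to 0.60 for X and Y multicopy genes, and the other lists lie between -0.16 and 0.37.

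Meiotic spermatocyte genes were present in the hetMIWI table at 19 of 52 members. Of 15 shared genes, 1 stood higher and 2 lower, with a median of 0.03. Hormad1, a meiotic axis protein, was lower at 8.23 against 19.5 FPKM (-1.95), Tdrd9 as above, and Plk1, a mitotic and meiotic kinase, was higher at 33.7 against 9.40 FPKM (1.14). Sycp1 and Spo11, of the synaptonemal complex and of meiotic break formation, were at 10.3 and 17.8 FPKM against 10.4 and 16.0 in lysate, within 2-fold. Stag3, a meiotic cohesin subunit, was at 139 against 77.4 FPKM (0.14). The list summed to 1049 FPKM in hetMIWI cells, 1352.7 in the other round spermatids and 1098 in lysate, so transcripts of genes on this list were present in the sorted cells. These sums were not centred, and the members listed differ by table. Hspa2, also on the chromatoid body list, held 481 FPKM of the hetMIWI sum. Sycp2, Sycp3, Syce1, Syce2 and Tex12, all listed for lysate, had no hetMIWI value. Of the members listed for lysate, 53.6% had a hetMIWI value, close to the 50.6% of all 5255 lysate genes. Rad51c, Nbn, Ccdc79 and Cdc25c were listed for hetMIWI cells only, at 6.14 to 7.51 FPKM. Of spermatogonial genes, 4 were listed for lysate, and Pcna, a replication factor, was the only one with a hetMIWI value (46.5 against 29.9 FPKM).

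The sex chromosomes differed from the autosomes in several counts. In mammals X and Y genes are silenced in pachytene spermatocytes, and part of them, mainly multicopy families, is active again in round spermatids. On the X, 10 of 43 shared genes stood higher (23.3%), against 197 of 2605 on the autosomes (7.56%), where single chromosomes ranged from 2.86% to 12.9%. The X share of lower calls was 11.6%, against 11.0% on the autosomes. With the joint-table lysate, 11 X genes stood higher. Among all X genes in the hetMIWI table, 47 of 90 (52.2%) had no lysate value, against 473 of 3078 on the autosomes (15.4%, single chromosomes 9.95% to 22.4%). In the other direction, 43 of the 102 X genes in the lysate table had a hetMIWI value, against 2605 of 5123 on the autosomes. X genes had a lower median level, 13.1 against 19.8 FPKM, which places more of them near the floor. At 20 FPKM or more in hetMIWI cells, a filter on that side alone, 7 of 34 X genes (20.6%) and 27 of 1528 autosomal genes (1.77%) lacked a lysate value. These 7 were the hairpins Mir684-1 and Mir470, with Gm2012, Gm14819, 4930428D18Rik, Ssxb1 and Ssxb2. Mir684-1 was at 125 FPKM in the joint-table lysate. The part of the floor, or of copies that share reads, was not tested. In the other round spermatid table, which was set against the same lysate, 58 of 119 X genes (48.7%) and 15.4% of autosomal genes lacked one.

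**Figure D5:**
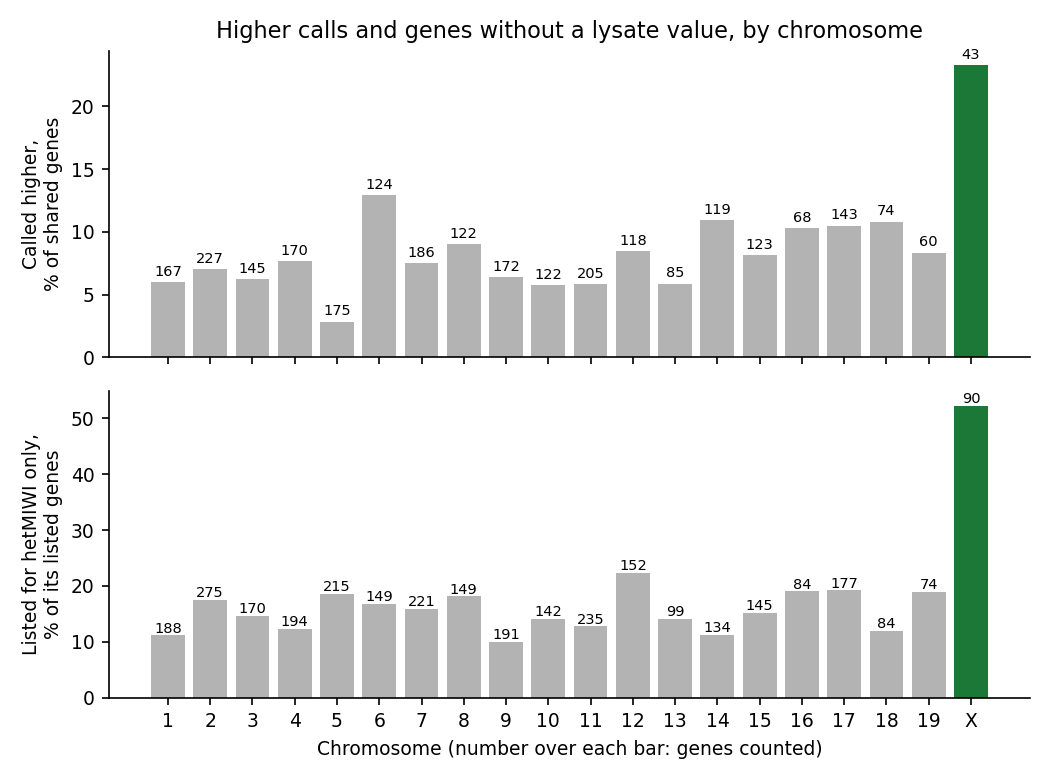
Share of shared genes called higher (upper bars, %) and share of genes in the hetMIWI table that had no lysate value (lower bars, %), for chromosomes 1 to 19 and X, with the number of genes counted over each bar. The X bars, 23.3% and 52.2%, exceed the highest autosomal bars, 12.9% and 22.4%.

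Named sex-linked genes came largely from multicopy families, whose near-identical copies share reads. Sly, a Y-encoded regulator of sex-linked genes in spermatids, was at 253 FPKM in hetMIWI cells and 7.04 in lysate (3.55 in the joint table), the largest increase of all at 4.47. Sly had no value in the other round spermatids, where 0 genes on unplaced Y sequence were listed. Slxl1, the X-linked relative of Sly, was higher at 185 against 44.0 FPKM (1.37), and the other round spermatids had 26.4 FPKM. Eif2s3y, a Y-linked translation factor, was at 46.2 against 8.13 FPKM (1.81), and Gm5168, an Xlr-related X gene, at 21.9 against 5.28 FPKM (1.35). These 4 were the higher members among 9 shared genes of the X and Y list, with 0 lower and a median of 0.60, which turned to -0.20 where both values reached 10 FPKM. Cypt3, an X-linked cysteine-rich perinuclear theca gene, was at 56.4 against 40.7 FPKM (-0.23), so not every member stood higher. Cypt12, an autosomal family member, was at 1343 against 578 FPKM (0.52). On unplaced Y sequence 5 of 6 shared genes stood higher, and of those 5 the joint table lists only Sly above 0 in lysate. The Ssxb family, X-linked relatives of human SSX genes, was singled out after its values were seen. Of its 7 genes, 6 were listed for hetMIWI cells at 5.24 to 25.8 FPKM and 0 for lysate, where the joint table gives 2.62 to 5.72 FPKM.

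Cytosolic ribosomal protein genes spread in both directions. Of 39 shared members, 12 stood higher and 6 lower, with a median of 0.37. Rpl22l1, a ribosomal protein paralogue, was at 195 FPKM in hetMIWI cells, 25.2 in the other round spermatids and 12.9 in lysate (9.29-fold higher). Rps13 was higher at 295 against 42.4 FPKM (2.10), and Rpl34 and Rps20 lay within 2-fold at 0.59 and 0.37. Rpl30 was the lowest at 5.85 against 29.3 FPKM (-3.02), but the joint table lists it at 0 in lysate. The lysate values of this list depend on the table. Rpl35a was at 391 FPKM in hetMIWI cells, but at 53.5 FPKM in the lysate table and 1.05 FPKM in the joint table. Rpl17 was likewise at 110 against 14.8 or 1.12 FPKM. With the joint table, 21 members stood higher and 2 lower, and the median became 1.22. The 12 higher calls held there, and 2 of the 6 lower ones. Ribosomal protein genes have many processed pseudogenes and often host small nucleolar RNAs, and 16 of the 39 share a file locus with another gene. The median was 0.50 for those 16 and 0.21 for the 23 at a locus of their own. Where the reads of such copies were placed was not tested.

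Outside the lists, the largest increases included Gng5 (a G protein gamma subunit; 131 against 9.66 FPKM, 8.37-fold), Zswim2 (a testis ubiquitin ligase; 85.5 against 6.66 FPKM, 7.90-fold) and Snrpf (an Sm ring protein of the spliceosome; 77.0 against 6.94 FPKM, 6.83-fold). Dnaja1, a cochaperone, followed at 44.3 against 5.70 FPKM (4.79-fold). In the other round spermatids these 4 were at 38.1, 43.7, 12.1 and 75.6 FPKM, not centred. The rule chose genes with low lysate values for their hetMIWI level, so setting other values against the same lysate gives no independent check. Of the 10 largest increases, Sly and D830030K20Rik had no value in the other round spermatids. The 2 uncharacterized genes D830030K20Rik and 1700086L19Rik completed the 10 largest increases with Sly and 3 ribosomal protein genes. The 10 largest decreases were led by small nucleolar RNAs and held 2 uncharacterized transcripts, 1700015G11Rik (19.2 against 331 FPKM) and 2900060B14Rik (6.28 against 59.6 FPKM). The remaining decreases were AF357355, Prm2 and Piwil1.

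Small nucleolar and nuclear RNAs, which guide modification of ribosomal and spliceosomal RNA in the nucleus, stood lower as a group. Of 19 shared members 18 were lower and 0 higher, with a median of -1.90 (-1.20 and 11 lower without centring, -0.56 and 7 lower with equal sums of FPKM). Only 2 of the 19 have a file locus of their own, Snord104 and Rnu12. Both were lower, but at the unlike values of -10.13 and -1.09, so their median of -5.61 does not describe the group. With the joint-table lysate 17 of the 18 kept the call. Snord104 was at 76.0 FPKM in hetMIWI cells and 52320 in lysate (-10.13). Snord8 held the highest hetMIWI value of any gene, 22944 FPKM, against 39860 in lysate (-1.50), and the spliceosomal Rnu12 was at 4478 against 5858 FPKM (-1.09). Another 70 members were listed for lysate only, led by Snord34 at 298202 FPKM. The other round spermatid table, with its RNA partly selected above 500 bp, lists 0 of these genes. Of other nuclear noncoding RNAs none was shared, so no direction was read: Rmrp, the RNase MRP RNA, at 966 FPKM, Malat1 at 233 FPKM and Neat1 at 28.5 FPKM were listed for lysate only, and Rpph1 for hetMIWI cells only. Genes under 500 nt had 26 lower of 49, a count that includes small RNA genes. With those left out, 6 of 28 were lower and 6 higher. The labels leave unsaid whether the sorted cells were fixed as the lysate was. The part of length or preparation in the difference was not tested.

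MicroRNA hairpin genes were seldom shared. Of 568 in the files, the hetMIWI table lists 13, of which 11 had no lysate value and 2, Mir344d-2 and Mir344d-3, were called lower. Over all genes, 528 of the 3187 in the hetMIWI table had no lysate value. Mir200c was the highest at 90.9 FPKM, and its neighbour Mir141 was at 13.2 FPKM. Mir470, an X-linked gene, was at 34.9 FPKM. All 3 are listed at 0 in the joint-table lysate, as are the other hetMIWI-only hairpins except Mir684-1 at 125 FPKM. A value of 0 there is no sign of absence, since the joint table also gives 0 for 27 of the 40 hairpins that the lysate table lists alone, among them Mir574 at 495 FPKM. The values belong to the hairpin genes in long-RNA libraries, so the arms below are shown for identity, not as measured. Mature arms are from RefSeq (GRCm38.p6), with the seed, bases 2 to 8, in capitals.
miR-200c-3p: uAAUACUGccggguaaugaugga
miR-141-3p: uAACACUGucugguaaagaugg
miR-470-5p: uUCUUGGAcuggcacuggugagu
miR-470-3p: aACCAGUAccuuucugagaaga
The 4 seeds all differ, including those of miR-200c-3p and miR-141-3p. The highest of the 40 hairpins listed for lysate only was Mir715 at 565 FPKM.

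Transcript length was examined because FPKM divides by it. Among 2627 shared genes with an annotated length, genes under 500 nt had 6 higher and 26 lower of 49. Without small RNA genes these became 6 higher and 6 lower of 28. The share of higher genes was 16.4% at 500 to 1000 nt, 13.0% at 1000 to 2000 nt, 7.28% at 2000 to 4000 nt and 2.71% at 4000 nt or more. The share of lower genes was 16.0%, 9.94%, 8.75% and 10.5% in the same bins. Long genes were therefore seldom called higher, while the share of lower calls varied less.

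Of the 528 genes listed for hetMIWI cells only, most were near the floor, with a median of 7.27 FPKM. Only 51 stood at least 2-fold above the lysate floor after centring. Their joint-table lysate values had a median of 8.40 FPKM, under the floor of 12.2 FPKM that the lysate table has on that scale, and 47 of 527 were above it. Ctxn2, a small membrane protein gene, was at 86.7 FPKM against 0.84 FPKM in the joint table. Hnrnpa3, an RNA-binding protein, was at 59.5 against 2.61 FPKM, and Rps27a at 151 against 6.04 FPKM. Rpph1, the RNase P RNA, shows that absence can mislead here too, since it was at 55.7 FPKM in hetMIWI cells and 2619 FPKM in the joint-table lysate. Prkag2, a subunit of AMP-activated kinase, was at 58.5 against 61.7 FPKM.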

How the data were processed

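RNA was sequenced in 14 libraries of adult mouse testis; the comparison used 1 library of hetMIWI round spermatids and 1 of lysate. The deposited values are FPKM per the file headers, made by the authors with TopHat and Cuffdiff on mm9, per the submitters' processing notes. No source used here gives versions, read counts, filters or whether strand was used. Depth is therefore unknown, and values under 5 FPKM, where steps of single reads could show, are not in these tables. Assembled transcripts without a symbol (2487, lysate only) and piRNA clusters (158, lysate only) were left out, since the hetMIWI table lists 0 of either.

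The highest FPKM per gene was kept, and the log2 ratio of hetMIWI cells over lysate (pseudocount 0) was centred on its median over shared genes and called at 2-fold, with no test, in Python 3.11.15 with pandas 2.3.3 and numpy 2.4.6. The ratio step was checked on simulated data. Joint-table loci (mm9) were counted from 1. Lists and members were chosen with earlier results of these data known. Named genes were Piwil1, the 10 largest changes each way with at least 20 FPKM in 1 table and the same call with the joint-table lysate, the 10 highest genes of each single table, and the 4 highest members per list; called members, X and Y genes and genes of contrast were also named after their values were seen. List symbols, transcript lengths (GENCODE M21) and promoters were matched by symbol or RefSeq synonym. Alternatives were other pseudocounts, filters, centrings, thresholds and lysate values.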

Additional observations from a re-analysis of the deposited data

How the results depend on the processing

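No paired analysis was possible because each group has 1 library. The counts of 213 higher and 293 lower genes became 171 and 167 with a pseudocount of 5 FPKM, 114 and 179 where both values reached 10 FPKM, 112 and 201 where 1 value reached 20 FPKM, and 20 and 44 at 4-fold. Without centring they were 893 and 78, and centred on summed FPKM 1766 and 32. With the joint-table lysate the median log2 ratio was -0.55 in place of 0.70 and the counts were 246 and 277. Over every gene with a joint value, an alternative chosen after seeing the data, they were 336 and 314. Leaving out genes that share a locus gave 178 and 235, and sums without small RNA genes gave 256 and 268, both also chosen after seeing the data. Genes listed in 1 table only fell to 130 for hetMIWI cells and 1516 for lysate at 10 FPKM or more. Of the genes with a ratio that the naming rule chose, 65 kept their side of the threshold with the joint-table lysate, 2 lost a call (Csda and Actl7b) and 4 gained one (Spaca1, Stk33, Mrpl32 and Cox4i1). The 10 largest changes each way were named only if they kept their call, so their part of the 65 was fixed in advance. The joint table holds the same lysate library, so it gives no independent check. Of genes named outside that rule, Tdrd9, Spam1, Tekt3 and Ndufa5 also lost their calls, Adad1 gained one, and Rpl30 has no ratio because the joint table lists it at 0. No gene was listed more than once in either table, so the highest and the mean value were the same. The X and Y list had a median of 0.60, which became -0.20 where both values reached 10 FPKM. With 1 library per group, no value here has a replicate error.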

Other observations

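Other housekeeping groups were closer to the median of shared genes. The nuclear genes of the respiratory chain had 30 shared members, 5 higher and 2 lower, with a median of 0.26. The higher members were Ndufa2 (228 against 50.2 FPKM, 1.49), Ndufa6, Ndufa5, Cox7c and Atp5h, a subunit of the ATP synthase (330 against 75.8 FPKM, 1.42). With the joint-table lysate 4 of the 5 higher calls held. Cox6b1 and Atp5e were lower at -1.51 and -1.20. A further 39 members were listed for lysate only, and 36 of these were listed for the other round spermatids. Mitochondrial ribosomal proteins had 21 shared members, with Mrpl16 (1.68) and Mrps18a (1.16) higher and Mrps36 (-1.44) lower.

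Proteasome genes had 23 shared members and a median of -0.08. Psma4 and Psmd12, a core and a regulatory subunit, were higher at 1.51 and 1.18. Psma8, the testis-specific core subunit that takes the place of Psma7 in spermatocytes, was lower at 11.8 against 18.8 FPKM (-1.37). Stress genes were within 2-fold for all 4 shared members, from Hsph1 (-0.72) to Hsp90aa1, a chaperone abundant in male germ cells (692 against 246 FPKM, 0.79). Of 67 replication-type histone genes, 28 were listed for lysate and 1 of these for hetMIWI cells, beside 50.6% of all 5255 lysate genes. The other round spermatids list 4 of the 67, 3 of them also listed for lysate. Among lysate genes that the other round spermatids lack, 30.2% had a hetMIWI value. The list includes the testis H2B gene Hist1h2ba.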
